A study of Macaca mulatta with 48 samples.

Results

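The cells described here were chosen from single-cell RNA-seq of rhesus monkey testis by a rule built on 6 genes of macrophages and monocytes, CD163, MRC1, CSF1R, C1QA, C1QB and C1QC. A barcode was taken when it had at least 300 genes, at most 30000 UMIs (unique molecular identifiers, 1 per captured transcript) and at most 3% of mitochondrial UMIs, held UMIs of at least 2 of the 6 genes, lacked UMIs of the endothelial gene EMCN and the T cell gene CD3D, and had less than 5% of its UMIs from the spermatid genes PRM1, PRM2 and TNP1. The rule took 1407 of 112150 cells that passed the filters, which is 1.25%. These cells came from 11 of 12 libraries. In the breeding-season library of adult animal 2 it took 0 of 117 cells. The upper limit of the two-sided exact 95% interval of that share is 3.10%. Because measured values chose the cells, their levels of the 6 genes are a description and were not tested.

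The study compared testes of prepuberty, adult and aged monkeys in the non-breeding season (NB) and the breeding season (B). The labels list 48 samples in 6 groups, each with an age group and a season and no further genotype or treatment, and all of testis. For the 12 matrices the study's library sheet, not the labels, ties each one to an age group, a season and an animal, so that each group held 2 libraries from 2 animals. Each animal gave a testis in August, in the non-breeding season, and its other testis in December, in the breeding season, as the paper states. Season therefore cannot be told apart from the date of collection or from the removal of the first testis. The paper names compensation after that removal, and change over time unrelated to season, among its limits. In the bulk of a dissociated testis, fewer cells of a type and a lower yield of that type cannot be told apart in a share of cells.

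Testicular macrophages sit in the interstitium beside Leydig cells and along the peritubular layer of the seminiferous tubules. They take up dying cells, present antigen and are known for secreting factors that act on Leydig cells and on spermatogonia. CSF1R is the receptor for colony stimulating factor 1, on which macrophages depend. CD163 takes up haemoglobin with haptoglobin, MRC1 (CD206) is a mannose receptor, and C1QA, C1QB and C1QC are the chains of complement C1q, which macrophages make. In the rhesus genome (Mmul_10, RefSeq annotation) the C1q genes lie next to each other on chromosome 1, C1QB at chr1:202117786-202126077, C1QC at chr1:202131138-202135635 and C1QA at chr1:202139634-202142742, all on the minus strand. CSF1R lies at chr6:147566255-147600778 on the minus strand, MRC1 at chr9:18959139-19056976 on the plus strand and CD163 at chr11:7681166-7715949 on the minus strand.

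Most of the rule-chosen cells did not carry the other genes of macrophages. Of 15 macrophage and monocyte markers that the rule did not use, such as TYROBP (a signalling adaptor of myeloid receptors), CD14 (a co-receptor for lipopolysaccharide), AIF1 and CD68, 775 of the 1407 cells (55.1%) had none. A total of 402 cells (28.6%) had UMIs of at least 3 of the 15 and are called marker-supported cells here. That threshold was set after the data were seen. The remaining 1005 cells are called unsupported. For the 775 without any of the 15 markers the name macrophage goes against the data. The other unsupported cells had 1 or 2 of the markers, and in the non-breeding library of prepuberty animal 2, 95% of the 20 unsupported cells held a C1q gene. The marker-supported cells made up 53.2%, 82.4%, 64.3% and 92.6% of the rule-chosen cells in the 4 prepuberty libraries. In adult and aged libraries they made up 4.04% to 40.6%.

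The number of rule genes in a cell set these classes apart. Among cells that met the rule's other conditions, 10560 had 1 of the 6 genes and were left out, and 0.975% of them had at least 3 outside markers. Just inside the threshold, 956 cells had exactly 2 of the 6 genes, and 5.54% of these had at least 3 outside markers. The share was 56.7% of 150 cells with 3 rule genes, 82.9% of 129 cells with 4, 89.8% of 118 cells with 5 and 94.4% of 54 cells with all 6.

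**Figure D1:**
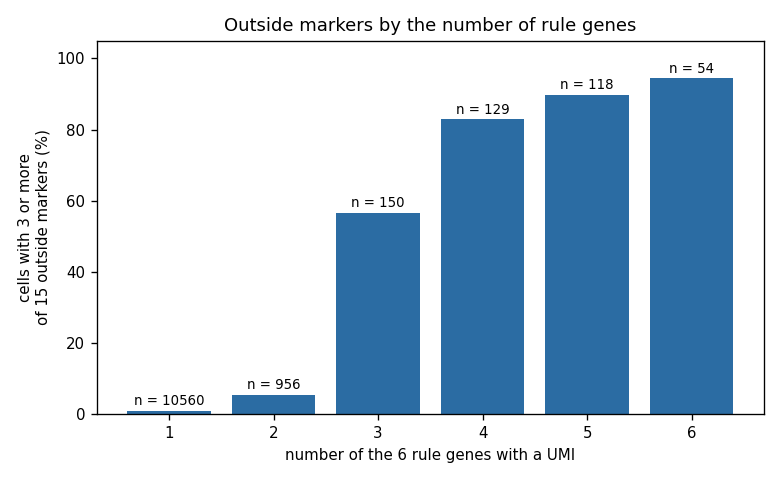
Share of cells with UMIs of at least 3 of 15 outside macrophage and monocyte markers (y axis, percent) against the number of the 6 rule genes with a UMI (x axis), all libraries pooled. The share is 5.54% at 2 rule genes, where 956 of the 1407 rule-chosen cells lie, and 56.7% at 3.

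Over all libraries the unsupported cells were deeper and more often carried germ cell RNA. Their median depth was 5009 UMIs, against 1758 UMIs in marker-supported cells. UMIs of at least 2 of 7 germ cell genes were present in 81.2% of unsupported and 20.6% of marker-supported cells, at these unequal depths. Prepuberty animal 2 differed, with a median of 2274 UMIs in unsupported and 2708 UMIs in marker-supported cells in the non-breeding season, and with such germ cell UMIs in 10% of 20 unsupported cells there and in none of 2 in the breeding season. MRC1 and CSF1R were the only rule genes in 446 unsupported cells (44.4%), and in 5 marker-supported cells (1.24%). A UMI of any C1q gene was present in 24.3% of unsupported cells and in 95.8% of marker-supported cells. The genes with the highest ratio of unsupported cells over all other cells were CCDC184, with a median log2 ratio over libraries of 1.15, and RIBC2, with 0.99 (genes at 50 CPM or more in the median library). Some low macrophage genes had larger ratios, such as FOLR2 at 3.56 against 0.640 CPM and CCL13 at 4.95 against 0.154 CPM in other cells, all libraries pooled.

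MRC1 was also found in cells that the rule left out, and by age. Its level in these other cells was at most 5.55 CPM (counts per 1000000 UMIs of the summed cells) in the 4 prepuberty libraries. In the 7 adult and aged libraries with rule-chosen cells it was 26.0 to 66.3 CPM. Over all libraries MRC1 stood at 346 CPM in marker-supported, 172 CPM in unsupported and 31.2 CPM in other cells, a much smaller step than that of C1QA, at 1882, 39.1 and 1.36 CPM.

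Fewer cells met the rule at equal depth. When each cell was thinned to 1000 UMIs, leaving 99105 of the cells, the rule took 432 (0.436%). In the non-breeding library of adult animal 2 it took 14 in place of 198 cells, and in the non-breeding library of prepuberty animal 2 it took 34 in place of 56. By construction, rule genes set both classes apart from other cells, and outside markers set marker-supported apart from unsupported cells. The order of a rule gene between marker-supported and unsupported cells was not fixed by the choice, since both met the same rule. TYROBP, an outside marker, was detected in 57.1% of marker-supported, 1.64% of unsupported and 0.280% of other cells. The rule gene C1QA was detected in 74.9%, 5.95% and 0.173%, and MRC1 in 32.2%, 23.9% and 3.21%. Of genes used by neither step, 3 macrophage genes were intermediate in unsupported cells. LYZ (lysozyme) was detected in 79.5% of marker-supported, 4.10% of unsupported and 0.547% of other cells, CD74, the invariant chain of MHC class II, in 93.2%, 6.77% and 2.93%, and FOLR2 in 18.0%, 1.03% and 0.0716%. Endothelial-like cells, which should lack LYZ and FOLR2, had them in 2.09% and 0.0426% at the same depth, below the unsupported cells. That order is partly fixed by the choice of cells. Endothelial-like cells were taken without UMIs of the 6 rule genes, and unsupported cells with UMIs of at least 2. Free RNA gives UMIs in cells that do not express a gene, and its part in the unsupported cells was not tested.

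The marker-supported cells carried many genes of macrophages, monocytes and other antigen-presenting cells that were not used to choose them. The genes with the highest ratio over all other cells were CD74, LYZ (lysozyme) and the MHC class II genes MAMU-DRA, MAMU-DRB1 and MAMU-DMB, with a median log2 ratio over 7 libraries of 7.62 for CD74 and 7.53 for LYZ. They were followed by genes such as SRGN (a granule proteoglycan), CCL3 (a chemokine), CD83 and CD86 (proteins of antigen-presenting cells), FOLR2 (a folate receptor of resident macrophages) and CD4. CD74 ran from 4860 to 18401 CPM over the 11 libraries, and MAMU-DRA from 6057 to 17119 CPM. LYZ ran from 1249 CPM in the breeding library of prepuberty animal 2 to 5735 CPM in the breeding library of adult animal 1. APOE, the apolipoprotein of lipid-handling macrophages, was between 3624 and 6149 CPM in the prepuberty libraries and between 1371 and 3776 CPM in the adult and aged ones. FOLR2 was present in each of the 11 libraries, from 63.9 to 752 CPM, and in other cells pooled it stood at 0.6 CPM.

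Genes of blood monocytes varied in these cells. LYZ, which is also in the monocyte list, was at 1296 to 4266 CPM summed per animal. S100A12 and CD300E had no UMI, S100A9 stood at 3.0 CPM over all libraries and S100A8 at 18.0 CPM. FCN1 stood at 29.0 CPM, CX3CR1 at 55 CPM, PLAC8 at 62 CPM and FCGR3 at 92 CPM, each far above the other cells, where they were at 0.233, 0.406, 1.97 and 0.824 CPM. CCR2, the receptor that brings monocytes into tissue, stood at 13 CPM. The resident macrophage genes VSIG4 (a complement receptor) and STAB1 (a scavenger receptor) stood at 185 and 130 CPM. The dendritic cell genes CD1C and CLEC10A stood at 32.0 and 49.0 CPM, and XCR1, of conventional dendritic cells that cross-present antigen, had no UMI. TIMD4, listed as a resident macrophage gene, was higher outside these cells, at 91.0 CPM in marker-supported, 208 CPM in other and 549 CPM in spermatid-like cells. All levels are shares of UMIs and are not corrected for transcript length.

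The 6 rule genes varied by library within the marker-supported cells. C1QA was lowest in the non-breeding library of adult animal 1, at 971 CPM, and highest in the breeding library of prepuberty animal 1, at 3539 CPM. CSF1R was at 653, 1150, 967 and 624 CPM in the prepuberty libraries. In the adult and aged libraries it was at 262 to 597 CPM, below each prepuberty value. CD163 went the other way in its extremes, with 133 to 302 CPM in prepuberty libraries and 220 to 625 CPM in adult and aged ones, and these ranges overlap. MRC1 ranged from 56.6 CPM, which is a single UMI, in the non-breeding library of adult animal 2 to 509 CPM in aged animal 2 in the breeding season. One UMI was worth 2.82 to 56.6 CPM, depending on how many UMIs the marker-supported cells of a library held (17666 to 355118 in all).

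The study names macrophage subsets by SPAG16 and STAB1, genes it picked on these libraries. CD86 was listed with them here, and the study's primer list holds both SPAG16 and CD86. By qPCR on RNA of testis tissue, the paper reports that markers of its SPAG16 subset were higher in aged than in adult animals. SPAG16 (chr12:100636691-101796886, plus strand), a gene of the sperm axoneme that spans 1160196 bases, was lower in marker-supported cells than elsewhere. It stood at 278 CPM in marker-supported, 726 CPM in unsupported and 398 CPM in other cells. At equal depth it was detected in 13.7% of marker-supported, 48.4% of unsupported and 26.8% of other cells. Within marker-supported cells it was at 0 to 335 CPM in prepuberty libraries, 143 to 236 CPM in adult libraries and 113 to 607 CPM in aged libraries, so that the libraries overlapped. Summed per animal it was at 76 and 203 CPM in prepuberty, 217 and 226 CPM in adult and 367 and 429 CPM in aged animals. The animals of each age lay above those of the age before, and neither age test passed. That order rests on few UMIs, with 1 UMI worth 56.6 CPM in adult animal 2. The 12 spermatid genes in these cells summed to at most 242 CPM in prepuberty and at least 12805 CPM in aged libraries. The part of spermatid RNA in the SPAG16 values was not tested.

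STAB1 (chr2:108653227-108683394, plus strand) and CD86 (chr2:154195678-154223008, minus strand), the ligand of CD28 on T cells, were far higher in marker-supported cells than elsewhere. STAB1 stood at 130 CPM in marker-supported, 4.5 CPM in unsupported and 1.3 CPM in other cells, and CD86 at 279, 3.7 and 1.4 CPM. STAB1 was at 84.6 to 268 CPM in prepuberty, 102 to 226 CPM in adult and 81.7 to 170 CPM in aged libraries. CD86 was at 254 to 640 CPM in prepuberty, 281 to 502 CPM in adult and 128 to 283 CPM in aged libraries. Summed per animal CD86 was at 328 and 396 CPM in adult and 159 and 184 CPM in aged animals. These are levels in chosen cells, while the paper's qPCR measured whole testis tissue. Of the 3 genes, none passed the test for season or age in marker-supported cells (edgeR quasi-likelihood test with Benjamini-Hochberg adjustment, described below).

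Genes of other testis cells were present in the marker-supported cells at levels that differed by library. The summed level of 12 spermatid genes was 17.9 to 242 CPM in the prepuberty libraries, 2818 CPM in the non-breeding library of adult animal 1, 33122 CPM in its breeding library, 20473 CPM in adult animal 2 (NB) and 12805 to 38379 CPM in the aged libraries. The other cells of the same libraries ran from 20.5 to 1081 CPM, then 7517, 98788 and 42825 CPM, then 52972 to 121991 CPM. The rule itself capped 3 of these 12 genes (PRM1, PRM2 and TNP1). The 7 Sertoli cell genes, such as AMH (anti-Müllerian hormone) and CLU (clusterin), summed to 708 to 5163 CPM in prepuberty, 550 to 4864 CPM in adult and 144 to 453 CPM in aged libraries. The 4 red blood cell genes summed to 3103 CPM in the non-breeding library of aged animal 1 and to 0 to 23.9 CPM elsewhere, and in the other cells of that library to 4093 CPM. In the prepuberty non-breeding libraries the red blood cell genes were at 347 and 427 CPM in other cells and had no UMI in marker-supported cells. The 7 T and NK cell genes summed to 0 to 189 CPM, and CD3D, which the rule used, was at 0. The part of these RNAs in the results below was not tested, except where values are given beside a result.

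**Figure D2:**
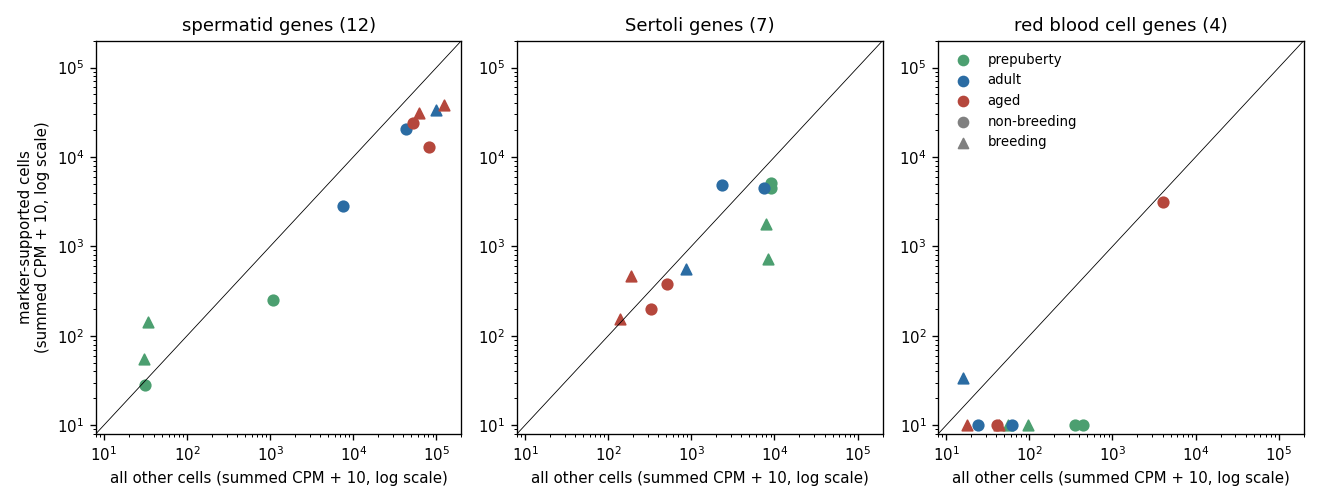
Summed level of 12 spermatid, 7 Sertoli cell and 4 red blood cell genes in marker-supported cells (y axis) against all cells the rule left out (x axis), 1 point per library, CPM plus 10 on log axes, with a line of equal levels. Spermatid genes run together from the prepuberty libraries (at most 242 CPM) to 38379 CPM in aged animal 2 in the breeding season.

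The share of cells gave how many such cells each testis yielded. Rule-chosen cells were 47, 17, 56 and 27 in the prepuberty libraries (animal 1 NB and B, animal 2 NB and B), or 0.449%, 0.236%, 0.494% and 0.273% of cells. In the adult libraries with cells they were 144, 181 and 198 (animal 1 NB and B, animal 2 NB), or 1.56%, 1.93% and 1.92%. In the aged libraries they were 345, 173, 137 and 82, or 2.68%, 2.33%, 1.04% and 0.760%. All 4 prepuberty libraries lay below the 7 others. Marker-supported cells showed another order. They were 25, 14, 36 and 25 cells in the prepuberty libraries (0.239%, 0.194%, 0.318% and 0.252%), 46, 30 and 8 in the adult (0.498%, 0.320% and 0.0777%) and 140, 45, 19 and 14 in the aged (1.09%, 0.607%, 0.145% and 0.130%). The lowest share, in adult animal 2 (NB), had an exact 95% interval of 0.0335% to 0.153%. The highest, in aged animal 1 (NB), had an interval of 0.916% to 1.28%. Intervals cover counting error only.

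**Figure D3:**
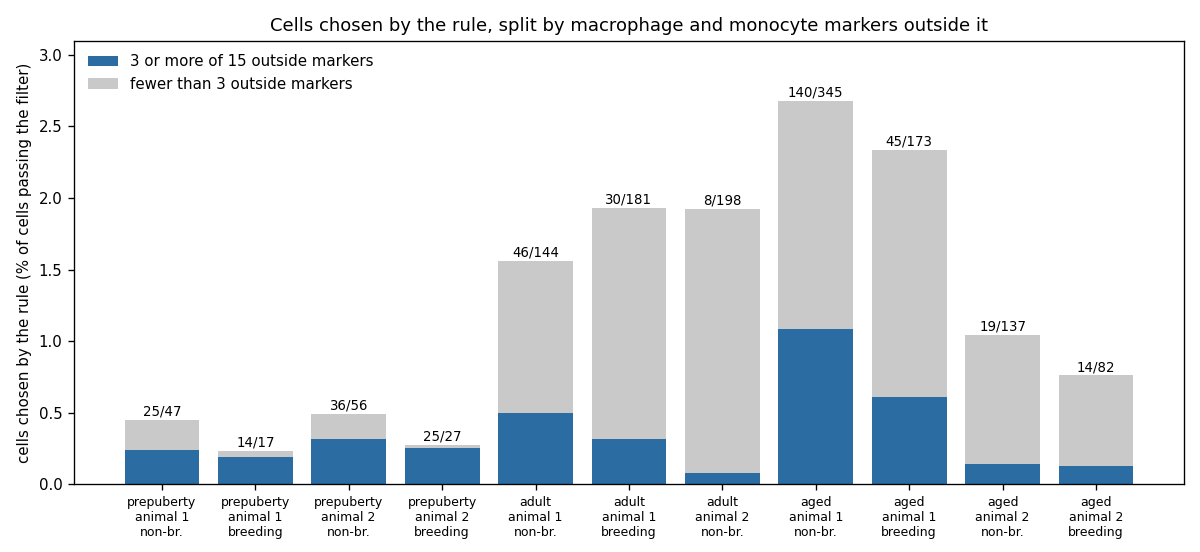
Rule-chosen cells in each library as percent of cells passing the filters, split into marker-supported and unsupported. Prepuberty libraries sit at 0.236% to 0.494% of cells and are mostly marker-supported, while adult animal 2 reaches 1.92% in the non-breeding season with 8 marker-supported cells of 198.

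Between seasons, the share of marker-supported cells was lower in the breeding season in 5 of 5 animals. The log2 ratios of breeding over non-breeding were -0.30 and -0.33 in the prepuberty animals, -0.64 in adult animal 1 and -0.84 and -0.16 in the aged animals. Their mean was -0.45 ± 0.28 (SD, n = 5 animals), a ratio of 0.730. The two-sided exact sign-flip permutation test gave p = 0.0625, the smallest value that 5 animals allow, so that this test could not reach 0.05. With cells thinned to 1000 UMIs, aged animal 2 turned to 0.77, on 5 non-breeding and 7 breeding cells. Thinning drops cells under 1000 UMIs, and the median marker-supported cell of its non-breeding library held 1008 UMIs. The thinned mean of -0.21 had an exact permutation p of 0.5. Counted per endothelial-like cell in place of per cell, the mean turned to 0.54. For all rule-chosen cells the mean was -0.43 ± 0.51 (SD, n = 5 animals), with an exact permutation p of 0.1875, and adult animal 1 went up (0.31). Spermatid-like cells, which are in the same denominator, made up 51.2% of cells in the breeding library of adult animal 1 and 2.78% in its non-breeding one. Over cells under 5% spermatid UMIs the mean for marker-supported cells was -0.13 (exact permutation p = 0.5).

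Between ages, the order depended on which cells were counted. Log2 shares were averaged over the libraries of an animal. Adult animal 2 entered with its non-breeding library alone, since its breeding library had 0 chosen cells of 117. All rule-chosen cells were 5.28-fold more frequent in adult than in prepuberty animals (log2 2.40, exact permutation p = 0.333 with 2 animals per group, the smallest value allowed). Thinned to 1000 UMIs, that log2 ratio was -0.0021. Aged over adult it was -0.29 for rule-chosen cells (exact permutation p = 1), and 0.84 thinned. For marker-supported cells the log2 ratio of adult over prepuberty was -0.49 (exact permutation p = 1), and 0.69 without adult animal 2. Aged over adult was 0.92 for marker-supported cells (exact permutation p = 0.667), and -0.26 without adult animal 2, -0.36 without aged animal 1 and 2.21 without aged animal 2. This exact test cannot reach 0.05 with 2 animals a group.

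Gene levels between conditions were tested on counts summed per library (season) or per animal (age), with edgeR's quasi-likelihood test and Benjamini-Hochberg adjustment at 0.05 over all genes tested. Over all rule-chosen cells no gene passed in any of the 7 comparisons. The same animals gave both seasons, and with animal as a block 921, 4633, 143, 35 and 2015 genes were called in the 5 season comparisons, on 1 residual degree of freedom. With adult animal 2 (NB) left out 367 genes were called for season in adults, and 3222 between adult and prepuberty with prepuberty animal 1 left out. Of 12930 genes tested, 0% was called for season over all ages, in adult, in aged and in prepuberty animals, and for the difference of the season change between aged and adult. Of 11941 genes, 0% was called between aged and adult and between adult and prepuberty animals. At an unadjusted p under 0.05 the season counts were 769, 501, 126, 635 and 137 genes, and the age counts were 517 and 3784. DESeq2 called 15, 0, 2, 12 and 0 genes for season, and 2 and 1439 for age. Adult animals gave 1 breeding library, and prepuberty animal 1 gave 17 breeding cells, under the minimum of 20, so that 10 libraries entered the season test.

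The genes with the lowest p over all rule-chosen cells are given as values. For season over all ages they were MAP3K21, UTF1 (a gene of undifferentiated spermatogonia), PPP1R14B, BEX3 and SLC25A11, with log2 differences of -2.58 to -6.04 and an adjusted p of 0.73. All 5 were lower in marker-supported than in other cells, UTF1 at 33 against 53.8 CPM. Between adult and prepuberty animals they were the chemokines CCL8 (log2 -7.65) and CCL2 (-6.80), the nuclear receptor NR4A3 (-4.02), the oxidised LDL receptor OLR1 (-4.47) and GPR18 (10.56), with an adjusted p of 0.0699. GPR18 stood at 24.0 CPM in marker-supported and 61.3 CPM in other cells, and CCL8 at 162 and 0.147 CPM. Between aged and adult animals they were SLC12A7, PLA2G1B, IL7R, ISG15 and TCEA3, with an adjusted p of 1.

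The same tests on the marker-supported cells alone, chosen after the data were seen, used libraries with at least 10 such cells. That left adult animal 1 as the only adult animal, so that each test with an adult group took its error from the spread of the other ages. Counts of calls below are read against the share of all tested genes called in the same comparison. For called genes with a higher level in other cells no such share can be given, since it was not computed over all tested genes.

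In prepuberty testes, marker-supported cells held more RNA of IL1B, NFKB1, IRF1 and IDO1 in the breeding season. Of 3966 genes tested, 16 (0.403%) were higher and 5 (0.126%) lower. DESeq2 called none higher and 1 lower. Of 12 tested pro-inflammatory genes, 3 rose and 11 were above 0, with a median log2 difference of 1.68 against -0.05 over all genes. IL1B, the inflammasome cytokine, was at 460 CPM (animal 1) and 734 CPM (animal 2) in the non-breeding season and at 1991 and 2878 CPM in the breeding season. That is a log2 difference of 1.88 ± 0.48 (SE, adjusted p = 0.0183). In the other cells of these libraries IL1B was at most 0.445 CPM. NFKB1, a subunit of NF-κB, went from 290 and 349 CPM to 796 and 1827 CPM (log2 1.94, adjusted p = 0.0251). IRF1, an interferon response factor, went from 36.3 and 17.9 CPM to 354 and 228 CPM (adjusted p = 0.0183).

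IDO1, the tryptophan-degrading enzyme that interferon induces, was at 12.1 and 17.9 CPM in the non-breeding and at 398 and 152 CPM in the breeding libraries of these animals (log2 3.69 ± 0.87, adjusted p = 0.00625). The interferon-induced GTPase gene GBP3 was at 109 and 125 CPM against 1017 and 792 CPM (log2 2.73, adjusted p = 0.00141). In each of these genes both breeding libraries lay above both non-breeding ones. The metallothionein gene MT2A had the largest rise (log2 3.76, adjusted p = 0.000478), from 36.3 and 26.8 CPM to 487 CPM in both breeding libraries. BCL2A1, a survival gene of the BCL2 family, went from 36.3 and 53.7 CPM to 442 CPM in both (adjusted p = 0.00246).

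Of 12 tested immediate early genes, which are switched on within minutes of a stimulus or of tissue handling, 2 rose and 12 were above 0 (median log2 0.67). NR4A3 was at 121 and 89.5 CPM in the non-breeding and 885 and 898 CPM in the breeding libraries (log2 2.92, adjusted p = 0.00134). It moved in other cells too, from 11 and 26.5 CPM to 150 and 237 CPM. IER3 went from 314 and 277 CPM to 1637 and 1249 CPM (log2 2.08, adjusted p = 0.012), while in other cells it was at 18.9 and 79.2 CPM and then at 24.9 and 14.5 CPM. The phosphatase gene DUSP2 (log2 2.85, adjusted p = 0.00173) and DENND4A (log2 2.55, adjusted p = 0.00169) also rose.

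Among the genes lower in the breeding season were PTGDS, a prostaglandin synthase (1778 and 492 CPM against 221 and 198 CPM, log2 -2.61), APOA1 (log2 -2.46) and AMH (2914 and 2730 CPM against 265 and 1066 CPM, log2 -2.09). All 3 were higher in other cells pooled than in marker-supported ones, AMH at 2228 against 726 CPM. In the other cells of the prepuberty libraries AMH moved less, from 4896 and 5814 CPM in the non-breeding season to 4794 and 4918 CPM in the breeding season. The 7 Sertoli cell genes together were at 9012 and 9063 CPM and then 8242 and 7892 CPM there, and at 5163 and 4538 CPM and then 708 and 1766 CPM in marker-supported cells. The number of calls depended on which libraries were in the fit. With the non-breeding sample of animal 1 left out, or the breeding sample of animal 2, no gene was called higher and 1 was called lower. With the non-breeding sample of animal 2 left out, 1 was higher and 2 were lower. The breeding sample of animal 1 held 14 cells, and leaving it out gave 17 higher and 4 lower genes.

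In adult animal 1, 63 genes (1.59%) were higher and 21 (0.53%) lower in the breeding library. The source of their RNA was not tested. Of the 63, 59 had a higher level in other cells than in marker-supported ones, as had 19 of the 21. Of 12 spermatid genes 7 rose. TNP2, a transition protein of spermatid chromatin, went from 6.39 to 1673 CPM, and SMCP, of the sperm mitochondrial capsule, from 63.9 to 2294 CPM. PRM1, PRM2 and TNP1 were also among those that rose, and since the rule capped them their values are a description. Of 6 tested Sertoli cell genes 4 fell, FATE1 (log2 -3.10) and AMH (log2 -2.98). The chemokine genes CCL3 (76.7 and 574 CPM, log2 2.85, adjusted p = 0.0164) and CCL4L1 (0 and 191 CPM, adjusted p = 0.00101) were higher in the breeding library, and these 2 were below 1 CPM in the other cells of both. This set 1 library against 1. Adult animal 2 (NB, outside the fit) had CCL3 at 283 and CCL4L1 at 56.6 CPM, between the values of the pair. CCL3 and CCL4L1 belong to a family of near-identical copies, among which reads may be split.

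Over all ages, 6 genes (0.151%) were higher and 31 (0.782%) lower in the breeding season. The total of 37 was 12 without prepuberty animal 1 (NB), 15 without aged animal 1 (B), 18 without aged animal 1 (NB), 22 without prepuberty animal 2 (B) and 17 with DESeq2. CCL4L1 passed under all of these, and IER3 under all but the one without aged animal 1 (B). CCL4L1 is also among the genes below whose season change differed between aged and adult animals, so that its mean over ages is not a common change. The adult side of that mean was adult animal 1 alone. CCL3 lost the call without prepuberty animal 1 (NB), aged animal 1 (B) or prepuberty animal 2 (B), and TNF without prepuberty animal 1 (NB), prepuberty animal 2 (NB) or either library of aged animal 1, and with DESeq2. The higher genes included TNF, the cytokine, at log2 4.05 ± 1.08 (SE, adjusted p = 0.0203), CCL4L1 at 3.08 ± 0.60 (adjusted p = 0.000175), IER3 at 1.73 ± 0.39 (adjusted p = 0.0019) and CCL3 at 1.65 ± 0.36 (adjusted p = 0.00176). CCL3 was at 484 and 1190 CPM in the non-breeding and 1769 and 3411 CPM in the breeding libraries of the prepuberty animals. In aged animals it was at 118 and 31.9 CPM in the non-breeding and 174 and 113 CPM in the breeding libraries, so that CCL3 was higher in breeding in 5 of 5 animals with both seasons, in aged animal 2 on a few UMIs. TNF was at 12.1 and 17.9 CPM against 44.2 and 152 CPM in prepuberty and at 0 against 95.6 CPM in adult animal 1. In the aged animals it was at 11.3 and 0 CPM against 113 CPM in both. In prepuberty animal 1 each value was 1 UMI, so that its counts show no rise. In the breeding library of aged animal 2, 1 UMI was worth 56.6 CPM. Adult animal 2 (NB, 8 cells, outside the fit) had TNF at 226 CPM, above each breeding value. With it, TNF had 39 UMIs over the 11 libraries.

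Of the 31 lower genes, 26 had a higher level in other cells. Among them were 5 of 6 tested Sertoli cell genes (SOX9, FATE1, CST9L, AMH and CLU), with a median of -2.81 against -0.18 over all genes. Of 12 pro-inflammatory genes 2 rose (TNF and CCL3), with a median of 0.84. No gene of the MHC class II list (6 tested), the resident macrophage list (8), the lysosome list (12), the anti-inflammatory list (9) or the scavenging list (10) passed.

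**Figure D4:**
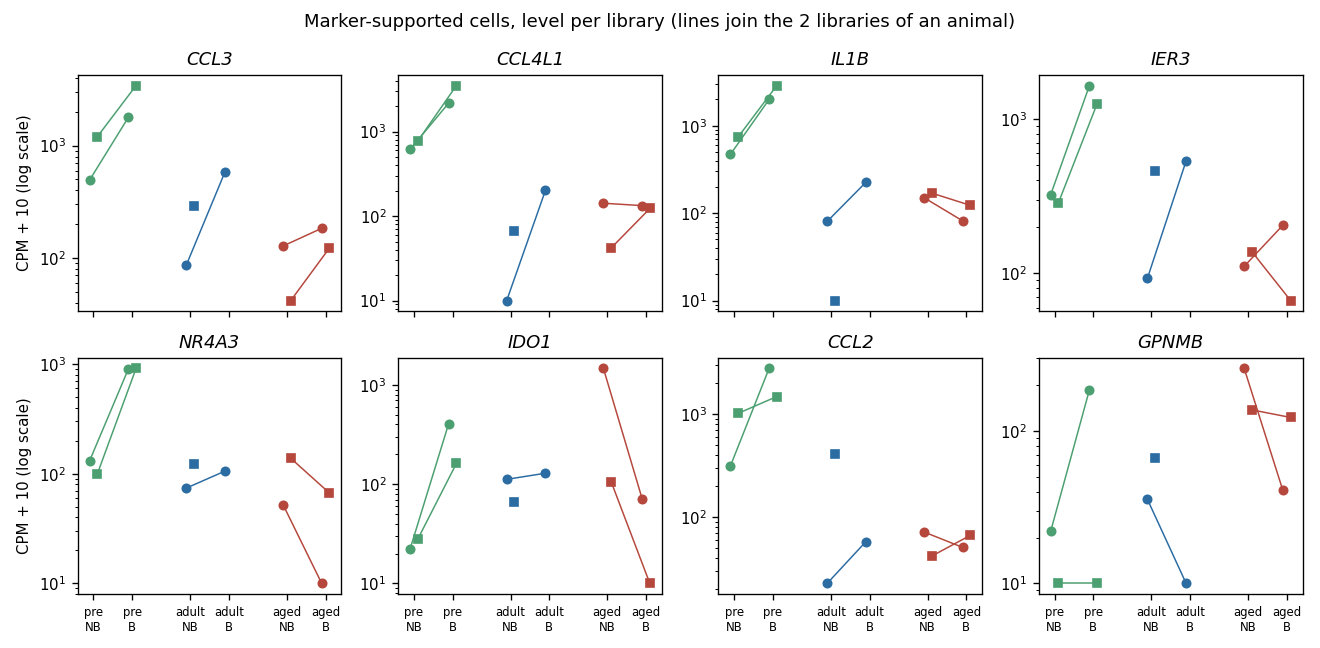
Level of 8 genes in marker-supported cells (CPM plus 10, log axis) in each library, with the seasons on the x axis, colour for age group, circles for animal 1 and squares for animal 2. CCL3, IL1B and IER3 are higher in the breeding libraries of both prepuberty animals, and IDO1 is highest, at 1456 CPM, in the non-breeding library of aged animal 1.

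In aged animals, 1 gene (0.0252%) was higher and 11 (0.277%) were lower in the breeding season. PDK4, a kinase that turns off pyruvate oxidation, was higher, at 8.45 and 0 CPM in the non-breeding and 144 and 509 CPM in the breeding libraries (log2 4.77 ± 1.13, adjusted p = 0.0101). PDK4 lost the call with DESeq2, and with either breeding library or the non-breeding library of animal 1 left out. DESeq2 called none higher and 1 lower. The lower genes were high in the non-breeding library of aged animal 1. IDO1 was at 1456 CPM there, 95.8 CPM in the non-breeding library of animal 2, and 61.5 and 0 CPM in the breeding libraries (log2 -4.18, adjusted p = 1.4e-06). CHIT1, chitotriosidase of activated macrophages (434 CPM), CXCL9, an interferon-induced chemokine (298 CPM), and the haemoglobin genes HBE1 (2616 CPM) and HBA (484 CPM) had no UMI in the other 3 aged libraries. PLAAT4 (380 CPM there and 0 to 20.5 CPM elsewhere) went the same way.

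IFI6, an interferon-induced gene, was at 259 and 224 CPM in the non-breeding and 10.3 and 56.6 CPM in the breeding libraries (log2 -3.73, adjusted p = 0.0153), lower in both aged animals. In their other cells IFI6 was at 66.3 and 12.8 CPM in the non-breeding season and at 4.44 CPM or lower in the breeding season. With the non-breeding library of animal 1 left out, no gene was called in aged animals. This library also held 189 T cells, while the other aged libraries held 0 or 1, and its other cells had IDO1 at 36.0 CPM against 0.692 to 0.821 CPM.

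The season change differed between aged and adult animals in 25 genes (0.63%). The spermatid genes TNP2 (log2 -7.02), SMCP, PRM1, PRM2 and TNP1 were among them, as were CCL4L1 and IFI6 (log2 -4.59). The rule capped PRM1, PRM2 and TNP1, so that their values are a description. Of the 25, 23 had a higher level in other cells than in marker-supported ones. The adult side was 1 animal, and 7 genes were called with the non-breeding sample of aged animal 1 taken out.

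Between aged and adult animals, 64 of 6799 genes tested (0.941%) were higher and 130 (1.91%) lower in aged marker-supported cells. DESeq2 called 2 higher and 12 lower, and of the genes named below HBE1, AMH and CLU passed there. The higher genes included GPNMB, a glycoprotein of lipid-laden macrophages, at 201 and 122 CPM in aged animals 1 and 2, 20.2 CPM in adult animal 1 and 56.6 CPM in adult animal 2, which was outside the fit (log2 3.10 ± 0.74 SE, adjusted p = 0.00277). In other cells GPNMB rose with age as well, from at most 2.13 CPM in prepuberty to 8.41 to 42.0 CPM in adult and 45.5 to 62.3 CPM in aged libraries. CYBB, the NADPH oxidase subunit of phagocytes, was among the 15 markers that chose these cells, so that its values are a description, at 205 and 163 CPM against 45.4 and 113 CPM, with 199 and 124 CPM in prepuberty.

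Several of the higher genes were found in 1 aged animal. CXCL9 (234 CPM), CHIT1 (340 CPM), ADAMDEC1 (97.2 CPM), CP (ceruloplasmin, 139 CPM) and HBE1 (2052 CPM) had no UMI in aged animal 2. Without aged animal 1, 23 genes were called, and without aged animal 2, 232.

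Lower in aged cells were the chemokine receptor gene CX3CR1 (11 and 61.2 CPM against 101 and 56.6 CPM, log2 -2.48, adjusted p = 0.0379), the chemokine gene CCL17 (2.21 and 20.4 CPM against 65.6 and 0 CPM, log2 -3.78), the apolipoprotein gene APOC1 (39.8 and 143 CPM against 620 and 283 CPM, log2 -3.39, adjusted p = 1.55e-07) and GAS6, a bridge to dying cells (126 and 102 CPM against 368 and 566 CPM, log2 -1.64, adjusted p = 0.0484). For CX3CR1 and CCL17 adult animal 2 lay within or below the aged values. PLAC8, in the monocyte list with CX3CR1, went the other way. It was at 99.4 CPM in aged animal 1 and had no UMI in aged animal 2 or either adult animal. APOC1 and GAS6 were lower in the other cells of aged libraries too, APOC1 at 6.20 to 17.6 CPM against 54.5 to 446 CPM and GAS6 at 8.59 to 50.3 CPM against 55.8 to 480 CPM in the adult libraries with rule-chosen cells.

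Of 7 tested MHC class II genes only Mamu-DPA1 passed, and it fell by 1.95 on the log2 scale (462 and 1184 CPM against 2763 and 1188 CPM, adjusted p = 0.00179). None of the 7 was above 0, and their median was -0.45, with adult animal 1 as the only adult animal in the fit. Adult animal 2, outside the fit, had Mamu-DPA1 at 1188 CPM, beside 1184 CPM in aged animal 2. Its CD74, at 5599 CPM, lay between the aged values of 5278 and 6921 CPM. Its MAMU-DRA, at 8031 CPM, lay above the aged values of 6915 and 6390 CPM. Mamu-DPA1 has near-identical relatives among which reads may be split. Of 14 lysosome genes none passed and 12 were above 0. Of 12 pro-inflammatory genes 1 rose (CXCL9), with a median of 0.32. None of 7 Sertoli cell genes was above 0, with AMH at log2 -5.76 and CLU at log2 -3.79. All 12 spermatid genes were above 0, and PRM2, TNP2 and TNP1 were called. The rule capped PRM2 and TNP1, so that their values are a description. Of the calls, 40 of the 64 higher and 109 of the 130 lower genes had a higher level in other cells.

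Between adult and prepuberty animals, 651 genes (9.57%) were higher and 124 (1.82%) lower in adult marker-supported cells. The lower calls were 93 without prepuberty animal 1, 30 without prepuberty animal 2 and 16 with DESeq2. CCL2, IL1B, CCL3, FOS and FOSB passed under all of these, while NFKB1, NR4A3, EGR1, SLC40A1, AXL, SGK1 and IFI44L lost the call without prepuberty animal 2 and with DESeq2, and HMOX1 without prepuberty animal 1 and with DESeq2. Of the 651, 610 had a higher level in other cells, and all 12 spermatid genes rose (TNP2 by log2 9.16). The rule capped PRM1, PRM2 and TNP1 of these, so that their values are a description. A smaller part of the lower genes had a higher level in other cells. The monocyte-attracting chemokine gene CCL2 was at 826 and 1172 CPM in the prepuberty animals, 20.2 CPM in adult animal 1 and 396 CPM in adult animal 2, outside the fit (log2 -5.51 ± 0.73 SE, adjusted p = 1.23e-11). In the aged animals CCL2 was at 57.4 and 40.8 CPM. IL1B was at 788 and 1528 CPM in prepuberty, 101 and 0 CPM in adult and 126 and 143 CPM in aged animals (log2 -3.44 ± 0.59, adjusted p = 4.38e-07). CCL3 was at 760 and 2012 CPM, 182 and 283 CPM, and 130 and 61.2 CPM (log2 -2.85, adjusted p = 1.54e-05). For these 3 genes every prepuberty animal lay above every adult and aged animal, adult animal 2 included.

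Of 12 tested pro-inflammatory genes 5 fell and 1 rose, with a median of -1.38 against 0.04 over all genes. CCL2, IL1B, CCL3, NFKB1 (399 and 896 CPM against 161 and 226 CPM) and NFKBIA, the inhibitor of NF-κB (741 and 1127 CPM against 262 and 509 CPM), fell. SOD2, a mitochondrial superoxide dismutase that NF-κB induces, rose (199 and 197 CPM against 494 and 1018 CPM). CXCL3, a neutrophil chemokine, was at 180 and 101 CPM in prepuberty and had no UMI in adult animals (adjusted p = 4.47e-05). OSM, a cytokine of the interleukin-6 family, went from 19.0 and 192 CPM to 5.04 and 0 CPM (adjusted p = 0.00298).

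Of 13 tested immediate early genes 9 fell and none was above 0, with a median of -1.61. FOS was at 3153 and 4273 CPM in prepuberty and 716 CPM in adult animal 1 (log2 -2.29 ± 0.51, adjusted p = 0.000229), while adult animal 2 had 2602 CPM. EGR1 (log2 -2.82), NR4A3 (log2 -2.18) and FOSB (log2 -2.06) fell as well, EGR1 from 95 and 135 CPM to 15.1 CPM in adult animal 1, while adult animal 2 had 113 CPM. These genes were also high in the other cells of prepuberty libraries, FOS at 905 to 4004 CPM against 24.5 to 362 CPM in adult ones. A part of tissue handling in them was not tested.

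Genes of iron handling fell in 2 of 9 tested. HMOX1, which breaks down heme, was at 285 and 90.2 CPM in prepuberty and 20.2 and 0 CPM in adult animals (log2 -3.01, adjusted p = 0.0016). SLC40A1, the iron exporter ferroportin, was at 142 and 152 CPM against 35.3 and 0 CPM (log2 -1.97, adjusted p = 0.0491). AXL, a receptor for dying cells, went from 152 and 158 CPM to 25.2 and 0 CPM (adjusted p = 0.0104), and the glucocorticoid-induced kinase gene SGK1 from 95 and 214 CPM to 30.3 CPM in adult animal 1, with 452 CPM in adult animal 2. IFI44L also fell (log2 -2.89). MAMU-DPA fell (1766 and 1668 CPM against 156 and 56.6 CPM, log2 -3.37, adjusted p = 3.97e-07), while Mamu-DPA1 rose in adult animal 1 (log2 1.25, adjusted p = 0.0445), at 2763 CPM against 1320 and 1133 CPM. Adult animal 2 had 1188 CPM, within the prepuberty values. Reads of this pair may be split between near-identical copies.

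Higher in adult cells were LGALS3 (galectin-3), at 209 and 135 CPM in prepuberty, 499 and 735 CPM in adult and 577 and 592 CPM in aged animals (log2 1.65, adjusted p = 0.0114), and the chemokine gene CCL13, at 19.0 and 11.3 CPM against 90.8 and 170 CPM (log2 2.70, adjusted p = 0.0188). In both genes the prepuberty animals lay below all others. Higher calls in this comparison were fewer with DESeq2 and with either prepuberty animal left out. Whether LGALS3, CCL13, SOD2, TIMD4 and the cell cycle genes kept the call is not given here. TIMD4 (log2 3.83) rose as well, in step with its level in other cells, where it was at most 8.21 CPM in prepuberty and 56.9 to 633 CPM in adult libraries. Of 6 tested cell cycle genes 3 rose (CENPF, BIRC5 and TOP2A), all 6 were above 0, and the median was 2.76. These 3 genes were lower in marker-supported cells than in the cells the rule left out, CENPF at 131 against 163 CPM, BIRC5 at 55 against 59.4 CPM and TOP2A at 48 against 65.8 CPM, and they rose beside the 12 spermatid genes.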

How the data were processed

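UMI counts per gene and cell were deposited by the authors as filtered 10x matrices, made with Cell Ranger 9.0.0 on Mmul_10, as the submitters' processing notes name them. The 12 matrices hold 112577 barcodes and 26530 features. For 9920 features without a symbol, 565 were named from the reference table, and the other features kept their identifiers. Library totals were 959819 UMIs in the breeding library of adult animal 2 and 23072680 to 43405583 UMIs in the others. The matrix of each group and animal came from the study's library sheet, since labels name no matrix. No per-sample column was left unused. Among cells passing the filters 3210 barcodes, and 38 rule-chosen cells, share a barcode with another library. No doublet caller was run; a cap at 2 times the median UMIs was an alternative.

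Counts of chosen cells were summed per library (at least 20 cells) or animal and tested with edgeR 4.0.16 (TMM, quasi-likelihood test, filter on low counts, Benjamini-Hochberg 0.05) in R 4.3.3. DESeq2 1.42.0 was an alternative, as were no filter, stricter rules, leaving out libraries and an animal block. CPM were computed from the summed counts. Shares were compared with exact two-sided permutation tests (SciPy 1.17.1). Scripts were tested on simulated counts. The same animal gave both seasons, as the study states. In the aged animals, with both seasons in the fit, deviations from the group means correlated at 0.231. Cells, lists and rules were chosen with earlier results of these data known. Genes named are the 10 called genes with the largest change in each direction with at least 20 UMIs, up to 4 called genes per list, and, where none passed, the 5 with the lowest p. The text describes a part of them, chosen after their values were seen. P-values measure the spread between animals, 2 per group at most.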

Additional observations from a re-analysis of the deposited data

Results flagged for a closer look

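A total of 25 genes, tested in marker-supported cells, changed with season differently in aged and adult animals (edgeR quasi-likelihood interaction test with Benjamini-Hochberg adjustment). The adult side was 1 animal. Spermatid genes were among those called, and the rule capped PRM1, PRM2 and TNP1 of these. DESeq2 called 3 genes, and the same test over all rule-chosen cells called none, with 137 genes at an unadjusted p under 0.05.

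The share of rule-chosen cells fell in the breeding season in both prepuberty animals and rose in the adult animal with both seasons, a mean difference in log2 ratio of -1.201. It fell in both aged animals as well, and the adult ratio lay 0.636 above the aged mean. With cells thinned to 1000 UMIs the adult ratio was -0.496, beside -0.575 and -0.398 in prepuberty, and aged animal 2 rose (0.702), so that neither contrast was seen at equal depth. Neither difference was tested, and the adult group had 1 such animal. In marker-supported cells the ratio without thinning was below 0 in all of these animals, and thinned it was 0.772 in aged animal 2.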

How the results depend on the processing

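Counts of called genes (edgeR, all rule-chosen cells, 0 in each comparison) depended on the cells and the tool. DESeq2 called 15 genes for season over all ages, 2 in aged, 12 in prepuberty, 2 between aged and adult and 1439 between adult and prepuberty animals. With no filter on low counts there were 8 for season over all ages, 9 in aged, 79 between aged and adult and 2637 between adult and prepuberty. Cells with 3 of the 6 rule genes gave 43, 399 (adult), 7 (aged), 19 (prepuberty), 8 (interaction), 177 and 1589. Marker-supported cells gave 37, 84, 12, 21, 25, 194 and 775 in the same order. For adult against prepuberty, cells under 1% spermatid UMIs gave 898, and cells up to 2 times the median UMIs gave 3366. Leaving out 1 library or animal gave 0 to 367 for season in adults and 0 to 3222 for adult against prepuberty, the last without prepuberty animal 1. The causes were not tested.

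With animal as a replicate block, 921, 4633, 143, 35 and 2015 genes were called for season over all ages, in adult, aged and prepuberty animals and for the interaction, with 1 residual degree of freedom. In marker-supported cells the block gave 34, 63, 10, 17 and 16.

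In marker-supported cells DESeq2 gave 17, 20, 1, 1, 3, 14 and 193 calls. Sums of at least 20 cells gave 170 in adults, 40 in prepuberty and 51 for the interaction. Leaving out 1 library or animal gave 12 to 38 for season over all ages, 0 to 12 in aged, 1 to 21 in prepuberty, 7 to 30 for the interaction, 23 to 232 for aged against adult and 409 to 565 for adult against prepuberty. The adult library or animal could not be left out, since it was the only one, and neither could the only breeding library of adult animals or of prepuberty animals over all rule-chosen cells.

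For shares (log2 ratio), the season mean of rule-chosen cells was 0.5615 per endothelial-like cell, -0.3552 with no replicate block, and -0.6108 to -0.3016 leaving out 1 animal. That of marker-supported cells was 0.5352, -0.0377 and -0.5275 to -0.3564. Aged over adult for rule-chosen cells, -0.2907 as reported, turned to 0.8378 thinned, 0.2136 per endothelial-like cell, 0.0215 over cells under 5% spermatid UMIs and 0.6998 for 3 of 6 genes, and was -1.0356 to 0.4543 leaving out 1 animal. Adult over prepuberty, 2.4016 as reported, was -0.0021 thinned. Marker-supported cells ranged from -0.3613 to 2.2068 (aged over adult) and -1.6684 to 0.6923 (adult over prepuberty). Of the alternatives for single genes named, 376 kept side and direction, 194 lost the call, 43 gained it and none reversed.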
